A study of Homo sapiens with 6 samples.

Results

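The integrated stress response genes examined here are DDIT3 (which encodes CHOP), TRIB3, CHAC1, ASNS, ATF3, ATF4, ATF5, PPP1R15A, NUPR1 and DDIT4. They were chosen by symbol, with earlier results of these data known, as were the lists of related genes below. All 10 were among the 34694 genes listed in the deposited signal table. The shares of members and lists set beside those of all genes are therefore descriptions only. The study compared SCC25 cells, an established line from an oral squamous cell carcinoma, grown for 72 h with 2.0 mM aspirin or without it. Total RNA was hybridised to Illumina expression arrays, 3 for each group, and replicates 1 and 3 of both groups lay on chip 1 while replicate 2 of both lay on chip 2. No vehicle, medium or culture identity is given for either group, so p-values reflect the scatter among these arrays only, possibly technical, and their number limits the precision.

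In the integrated stress response, kinases that sense amino acid shortage, misfolded protein in the endoplasmic reticulum, double-stranded RNA or heme and mitochondrial stress phosphorylate the initiation factor eIF2. General translation then slows, while the mRNA of the transcription factor ATF4 is translated more. ATF4 acts with C/EBP family partners on genes of amino acid supply and on further regulators such as CHOP, ATF3 and TRIB3, and PPP1R15A closes the loop by guiding a phosphatase to eIF2. Because ATF4 is controlled largely at translation, its mRNA level on an array is not a measure of its protein.

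Promoter sequences are shown for the members whose window held a motif that ATF and C/EBP proteins are known to bind. Windows came from RefSeq (GRCh38.p14), 17 windows for 9 of the members, each from 250 bases before to 50 bases after a gene start. Searched were the composite C/EBP-ATF element TGATGNAAN, the cAMP response element TGACGTCA and the endoplasmic reticulum stress element, all on both strands. Printed below are the 250 bases before the start, 5′ to 3′ on the gene's strand, with the match in capitals.
ASNS, chr7:97872409-97872658, - strand: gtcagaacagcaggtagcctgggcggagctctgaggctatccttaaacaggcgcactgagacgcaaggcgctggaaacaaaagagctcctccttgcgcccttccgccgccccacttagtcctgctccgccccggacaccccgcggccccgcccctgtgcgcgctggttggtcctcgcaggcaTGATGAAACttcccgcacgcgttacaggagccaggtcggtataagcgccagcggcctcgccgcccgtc
CHAC1, chr15:40953221-40953470, + strand: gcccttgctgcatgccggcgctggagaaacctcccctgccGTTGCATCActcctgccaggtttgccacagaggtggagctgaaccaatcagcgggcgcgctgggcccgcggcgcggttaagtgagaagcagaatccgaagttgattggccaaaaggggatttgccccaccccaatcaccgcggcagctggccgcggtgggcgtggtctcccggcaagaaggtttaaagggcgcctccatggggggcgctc
ATF3, chr1:212565157-212565406, + strand: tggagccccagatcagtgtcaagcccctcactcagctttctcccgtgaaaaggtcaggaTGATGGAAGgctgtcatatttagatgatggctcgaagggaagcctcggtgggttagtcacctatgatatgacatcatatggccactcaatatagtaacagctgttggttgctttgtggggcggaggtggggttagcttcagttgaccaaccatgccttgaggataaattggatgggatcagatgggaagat
PPP1R15A, chr19:48872171-48872420, + strand: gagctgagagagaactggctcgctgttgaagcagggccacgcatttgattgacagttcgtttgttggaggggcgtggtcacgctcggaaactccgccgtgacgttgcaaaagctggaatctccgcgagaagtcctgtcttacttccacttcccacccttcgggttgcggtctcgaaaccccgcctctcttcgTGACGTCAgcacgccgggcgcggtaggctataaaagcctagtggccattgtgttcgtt
The composite element was found in 1 window each of 3 members, with 17 windows searched. Its first base lay at -68 from the start in ASNS, at -210 in CHAC1, on the strand opposite to the gene, and at -191 in the more upstream of the 2 starts listed for ATF3. The second windows of ASNS and ATF3 held no match. The cAMP response element was found at -58 in PPP1R15A alone, and the endoplasmic reticulum stress element in 0 members. Of all 35116 promoter windows in the table, 3.61% held the composite element, 1.85% the cAMP response element and 0.0769% the endoplasmic reticulum stress element. No match says only that these letters are not in the window, as for DDIT3, TRIB3, ATF4, ATF5 and DDIT4.

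Aspirin was followed by higher mRNA of the pro-apoptotic regulator CHOP, and of TRIB3, CHAC1, ASNS, PPP1R15A and ATF4. Of the 9 members that passed the filter on detection, 6 rose, 0 fell and 3 did not pass the test (NUPR1, ATF5 and DDIT4), where 10.5% of all 15128 genes tested rose and 9.73% fell. At least 2-fold rises were called for DDIT3, TRIB3, CHAC1 and ASNS, 4 of the 9, beside 2.57% of all genes tested. The place of CHAC1 in this count depends on the background correction, since it stayed under 2-fold without correction, with background from all listed genes and with a larger offset. A gene passed the filter when its detection score, read as 1 minus the detection p-value, was above 0.95 on at least 3 of the 6 arrays. CHAC1 met this through its aspirin arrays, so its place in both counts is partly set by the filter. With scores above 0.95 required on all 6 arrays CHAC1 was not tested, and 5 members rose, where 1428 of 11286 genes tested rose. The test was limma's moderated test, without a term for the replicate number, with Benjamini-Hochberg adjustment over all genes tested. A gene counted as changed at an adjusted p under 0.05. With the replicate number as a block, 7 of the 9 rose, where 17.4% of all genes tested rose. All differences are aspirin minus control on the log2 scale of background-corrected, quantile-normalized signal, with the SE of the fit. The median difference of the 9 members was 0.92, against 0.02 for all genes tested.

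**Figure D1:**
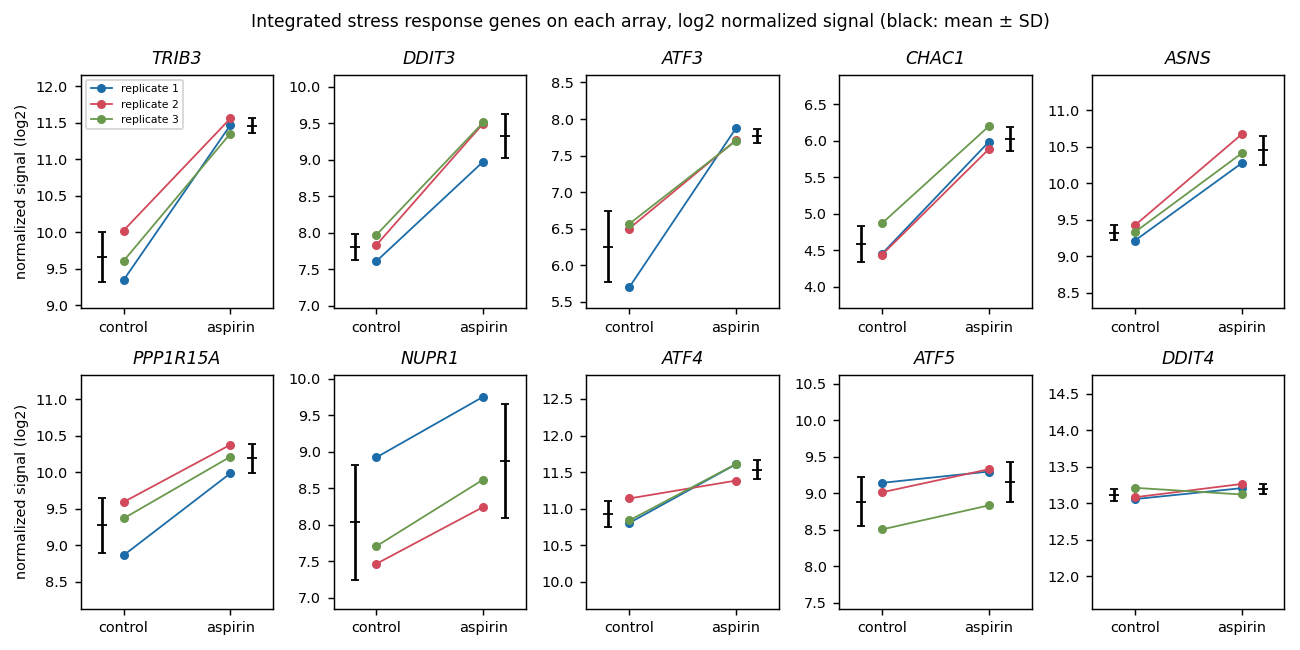
Log2 normalized signal of each integrated stress response gene on each of the 6 arrays. Points are arrays, lines join the control and aspirin array of the same replicate number, and black marks beside them are the group mean ± SD (n = 3). Every panel spans the same height in log2 units, centred on its own gene, and the groups do not overlap for TRIB3, DDIT3, ATF3, CHAC1, ASNS, PPP1R15A and ATF4.

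TRIB3, a pseudokinase induced by ATF4 and CHOP that restrains ATF4 activity, had the highest difference of the members. Its normalized signal was 9.35, 10.02 and 9.61 on control arrays 1 to 3 and 11.47, 11.56 and 11.35 on aspirin arrays 1 to 3. The aspirin arrays lay close together and well above every control array. The rise was 1.80 ± 0.19, or 3.48-fold with a 95% interval of 2.59 to 4.67 (adjusted p = 0.000798), from 9.66 ± 0.34 to 11.46 ± 0.10 (SD, n = 3). It exceeded the differences of 99.8% of all genes tested and was 2.12, 1.53 and 1.74 in replicate pairs 1 to 3.

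DDIT3 encodes CHOP, a C/EBP family transcription factor that ATF4 induces and that favours cell death when stress persists. Its deposited signal was 273.2, 370.5 and 334.5 intensity units on controls 1 to 3 and 478.4, 927.9 and 741.4 with aspirin, over a mean background of 95.4 to 116 units. After normalization the arrays read 7.61, 7.83 and 7.97 without aspirin and 8.97, 9.50 and 9.51 with it. The groups did not overlap, and replicate 1 was the lowest in both. The rise was 1.52 ± 0.19, or 2.87-fold with an interval of 2.14 to 3.85 (adjusted p = 0.00139), with 1.36, 1.66 and 1.54 in the 3 pairs. Under all 22 alternative settings, of which the chip 1 arrays alone and leaving out both replicate 2 arrays are the same fit, DDIT3 passed with differences from 1.23 to 1.70 and TRIB3 with 1.64 to 2.25.

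CHAC1 is an enzyme that degrades glutathione and is induced by ATF4. Its signal was close to the background of 95.4 to 116 units, at 105.5, 116.2 and 112.6 units on controls 1 to 3 and 131.5, 161.9 and 153.4 with aspirin. It was above background on 1 of 3 control arrays, control 3, with a detection score of 0.955, and on all 3 aspirin arrays. Its 3 aspirin arrays alone would have met the filter, so it passed through the group in which it was higher. Normalized signals were 4.45, 4.44 and 4.87 in controls and 5.98, 5.88 and 6.20 with aspirin, and the groups did not overlap. The difference was 1.43 ± 0.17 (adjusted p = 0.00121), nearly even over the pairs at 1.53, 1.44 and 1.33. Its size rests on the background correction: it was 0.09 when background came from all listed genes, 0.50 without background correction and 0.77 with an offset of 50 in place of 16, each past the threshold (adjusted p = 0.0203, 0.00531 and 0.00229).

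ASNS, asparagine synthetase, makes asparagine from aspartate and glutamine and is the classical target of the amino acid response. Its normalized signal was 9.22, 9.42 and 9.33 in controls and 10.27, 10.67 and 10.41 with aspirin. All aspirin arrays lay above all control arrays, and replicate 2 was the highest in both groups. ASNS rose by 1.13 ± 0.15, or 2.19-fold with an interval of 1.72 to 2.77 (adjusted p = 0.00198), with 1.06, 1.25 and 1.08 in the pairs. Its call was lost only where both replicate 3 arrays were left out (1.15, adjusted p = 0.0585), of 22 alternatives run.

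PPP1R15A, also called GADD34, is the stress-induced subunit that brings protein phosphatase 1 to eIF2 and so ends the response. Its arrays read 8.86, 9.59 and 9.37 in controls and 9.98, 10.38 and 10.21 with aspirin. Replicate 1 was the lowest and replicate 2 the highest of both groups, which did not overlap. The rise of 0.92 ± 0.21 (1.89-fold, interval 1.36 to 2.62, adjusted p = 0.0166) was 1.12, 0.78 and 0.84 in the pairs. The call was lost without aspirin replicate 2 (adjusted p = 0.0584) or aspirin replicate 3 (adjusted p = 0.0592). It was also lost without both replicate 2 arrays (adjusted p = 0.0666) or both replicate 3 arrays (adjusted p = 0.142), and with median scaling (0.78, adjusted p = 0.0661).

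ATF4, the transcription factor at the centre of the response, had the lowest difference among the members that rose. Its normalized signal was 10.80, 11.14 and 10.84 in controls and 11.61, 11.38 and 11.61 with aspirin. The highest control array, replicate 2, came within 0.24 of its own aspirin partner, while pairs 1 and 3 differed by 0.80 and 0.77. The rise was 0.61 ± 0.15, or 1.52-fold, with a 95% interval of 0.26 to 0.95 in log2 (adjusted p = 0.0242), from 10.93 ± 0.18 to 11.53 ± 0.13 (SD). The call was lost without control replicate 1 (adjusted p = 0.0572), control replicate 3 (0.0868), aspirin replicate 1 (0.0614) or aspirin replicate 3 (0.0852), without both arrays of any replicate number (up to 0.235), and with median scaling (0.46, adjusted p = 0.0963).

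ATF3, a transcription factor of the same family that is induced by ATF4 and by many other stresses, was not tested with the rest because its detection score was below 0.95 on every array (0.439 to 0.877). The scores of ATF3 are not whole steps of 1 in 770, as those of 79.7% of listed genes are, and for such genes the reading as 1 minus p could not be established. Its signal was nevertheless above the background mean plus 3 SD on all 6 arrays, at 137.0, 205.3 and 179.7 units in controls and 267.3, 338.7 and 275.0 with aspirin. Normalized, it read 5.70, 6.50 and 6.56 in controls and 7.88, 7.71 and 7.70 with aspirin. Control 1 stood below the other controls, the aspirin arrays lay close together, and the groups did not overlap. In the fit without a filter, where 4.28% of 34693 genes rose, ATF3 rose by 1.51 ± 0.23 (adjusted p = 0.0132), by 2.18, 1.21 and 1.14 in the pairs. With no filter in each, 14 of 19 further settings kept the call, where the chip 1 arrays alone and the arrays without replicate 2 are the same fit. It was lost without aspirin replicate 3 (adjusted p = 0.0523), on the chip 1 arrays alone (0.105), without both replicate 3 arrays (0.126) and in the deposited matrix (0.0522). With the background from all listed genes the difference was 0.33 (adjusted p = 0.0165), and without control replicate 1 it was 1.23.

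NUPR1, a small chromatin-associated stress protein downstream of ATF4, differed more between replicates than between groups. It read 8.92, 7.47 and 7.71 in controls and 9.75, 8.24 and 8.62 with aspirin, so both replicate 1 arrays were high and control 1 lay above aspirin 2 and 3. The difference of 0.84 ± 0.46 did not pass (adjusted p = 0.236; 95% interval -0.20 to 1.88). Within pairs it was 0.83, 0.78 and 0.91, with an SD of 0.0678 over the pairs against 0.78 within each group. With the replicate number as a block NUPR1 passed (adjusted p = 0.00177, interval 0.57 to 1.11), a fit in which 33.1% of all genes were called, 17.4% higher and 15.7% lower. It also passed without both replicate 1 arrays (0.84, adjusted p = 0.0165). The difference was 1.28 without control replicate 1, 0.56 without control replicate 2 and 0.40 without aspirin replicate 1.

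ATF5, a relative of ATF4 that acts in the mitochondrial stress response, and DDIT4, an inhibitor of mTORC1 that is also named REDD1, did not pass. ATF5 read 9.14, 9.01 and 8.51 in controls and 9.30, 9.33 and 8.83 with aspirin. Both replicate 3 arrays were the lowest of their group, and the groups overlapped. Its difference was 0.27 ± 0.21 (adjusted p = 0.424), with an interval in fold from 0.861 to 1.68, and 0.15, 0.32 and 0.33 in the pairs. DDIT4 had signals of 8353 to 10621 units on all arrays. Its normalized values were 13.06, 13.08 and 13.21 in controls and 13.21, 13.26 and 13.12 with aspirin, which overlapped. The DDIT4 difference of 0.08 ± 0.13 (adjusted p = 0.708) had an interval in fold from 0.863 to 1.30, and its sign differed between pairs (0.15, 0.18 and -0.09). In none of the 22 alternatives did ATF5 or DDIT4 pass. Neither result shows that the mRNA was unchanged.

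**Figure D2:**
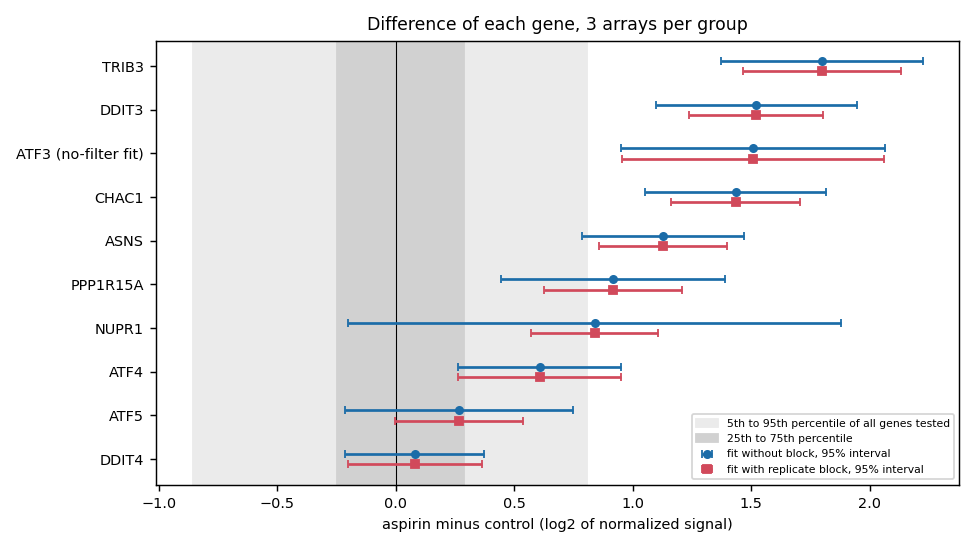
Difference in log2 normalized signal, aspirin minus control, of each of the 10 genes with its 95% interval, from the fit without a block (circles) and with the replicate number as a block (squares), 3 arrays per group. Grey bands hold the middle 50% and 90% of differences of all 15128 genes tested (-0.25 to 0.29 and -0.86 to 0.81). The NUPR1 interval, -0.20 to 1.88 without the block, narrows to 0.57 to 1.11 with it.

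In order of their differences the members ran TRIB3, DDIT3, ATF3, CHAC1, ASNS, PPP1R15A, NUPR1, ATF4, ATF5 and DDIT4. The order held for the setting used and not throughout: with the background from all listed genes, CHAC1 (0.09) and ATF3 (0.33) lay below ASNS (1.53), PPP1R15A (1.23) and ATF4 (0.69). Neighbours in the order had overlapping intervals, and differences between genes were not tested. The interval of TRIB3 (1.37 to 2.22) lay wholly above that of ATF4 (0.26 to 0.95). All 9 members tested had a positive difference, where 7885 of all 15128 genes tested had one. In each of the 3 pairs 8 of the 9, all but DDIT4, were higher with aspirin, where 32.7% of all genes tested were. The groups did not overlap for 6 of the 9 members, against 38.8% of all genes tested, 20.6% upward. On the chip 1 arrays alone, DDIT3 (1.45), TRIB3 (1.93), CHAC1 (1.43) and ASNS (1.07) passed (adjusted p = 0.0331, 0.0145, 0.0262 and 0.0310), while ATF4 (0.79) and PPP1R15A (0.98) did not (0.0548 and 0.0666). The single chip 2 pair gave 1.66, 1.53, 1.44 and 1.25 for the same 4 genes and 0.24 and 0.78 for ATF4 and PPP1R15A, with no test.

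**Figure D3:**
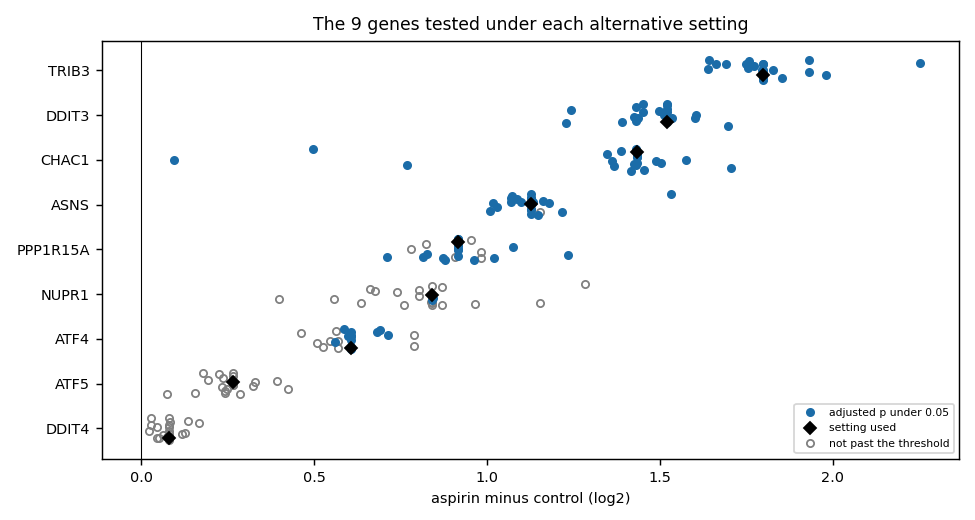
Difference of each of the 9 members tested, aspirin minus control in log2 units, in the setting used (diamonds) and in every alternative (filled circles where the adjusted p was under 0.05, open ones otherwise). Vertical position within a row carries no information. TRIB3 and DDIT3 passed in all settings, CHAC1 ranged down to 0.09 and still passed, and ATF5 and DDIT4 passed in none.

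Upstream of ATF4, most genes of the eIF2 step did not pass the test. Among 22 genes tested there were 2 that rose and 2 that fell, a share called of 18.2% beside 20.2% of all genes tested, 18 missed the threshold, and the median was 0.09. EIF2AK3, which encodes PERK, the eIF2 kinase of the endoplasmic reticulum, rose by 0.81 ± 0.18 (adjusted p = 0.0157), from 6.47, 6.36 and 6.38 to 7.56, 7.16 and 6.92. The other kinases did not pass: EIF2AK1 (HRI) differed by 0.09, EIF2AK2 (PKR) by -0.23 and EIF2AK4 (GCN2) by 0.15 (adjusted p = 0.734, 0.508 and 0.590), values added after they were seen. DELE1, listed as KIAA0141, which relays mitochondrial stress to HRI, rose by 0.68 ± 0.15 (adjusted p = 0.0149). PPP1CB, a catalytic subunit of protein phosphatase 1, changed by -1.17 ± 0.14 (adjusted p = 0.00146), from 8.34 ± 0.13 to 7.18 ± 0.15 (SD, n = 3). EIF2S2, the beta subunit of eIF2, changed by -0.63 ± 0.15 (adjusted p = 0.0209). With the background from all listed genes these 4 differences shrank to 0.15, 0.15, -0.47 and -0.08, and EIF2AK3 and EIF2S2 lost their calls (adjusted p = 0.0911 and 0.0585). Calls were also lost without single arrays, that of EIF2AK3 without control replicate 3 (0.0556), that of DELE1, listed as KIAA0141, without aspirin replicate 3 (0.0555) and that of EIF2S2 without control replicate 2 or 3 or aspirin replicate 2 or 3 (up to 0.0795).

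Other targets of ATF4 and CHOP moved mainly upward, with 14 of 39 tested rising. A pair fell (2) and 23 missed the threshold, a share called of 41.0% beside 20.2% of all genes tested, with a median difference of 0.35 beside 0.02. With the replicate block 19 rose and 3 fell, where 17.4% of all genes rose and 15.7% fell. GDF15, a stress-induced cytokine, rose by 4.35 ± 0.19 (adjusted p = 2.65e-05), from 5.43 ± 0.31 to 9.78 ± 0.20 (SD, n = 3). GPT2, the mitochondrial alanine aminotransferase, rose by 1.26 ± 0.17 (adjusted p = 0.00228), and HERPUD1, a component of degradation at the endoplasmic reticulum, by 1.03 ± 0.16 (adjusted p = 0.00408). PSPH, the last enzyme of serine synthesis, changed by -0.75 ± 0.13 (adjusted p = 0.00588). GADD45A, a growth arrest gene induced by DNA damage, changed by -0.63 ± 0.14 (adjusted p = 0.0161), and its call was lost without control replicate 2 or aspirin replicate 2 or 3 (up to 0.0659). With the background from all listed genes GDF15 rose by 2.28, and PSPH and GADD45A changed by -0.23 and -0.37, all past the threshold. 7 further targets missed the filter. In the fit without a filter VEGFA (1.26, adjusted p = 0.0151), PSAT1 (0.86, 0.0112) and MTHFD2 (0.71, 0.0133) rose among them, and this trio was named after its values were seen. Over all targets listed, that fit gave 15 higher and 3 lower. Of all 34693 genes in it, 4.28% rose (1484) and 1381 fell. SLC7A11, the cystine transporter, and FGF21, a secreted hormone, were above background on no array.

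Of the genes induced through ATF6 and XBP1, the other arms of the unfolded protein response, 4 of 21 rose, 0 fell and 17 missed the threshold, with a median of 0.17 and a share called of 19.0% beside 20.2% of all genes tested. They were DNAJB9, a co-chaperone (0.90 ± 0.16, adjusted p = 0.00663), EDEM1, which marks misfolded glycoproteins for degradation (0.57 ± 0.13, 0.0207), HSPA5, the chaperone BiP (0.64 ± 0.17, 0.0283), and SYVN1, a ubiquitin ligase (0.63 ± 0.19, 0.0469). With the replicate block 7 of the 21 rose, beside 17.4% of all genes. The call of HSPA5 was lost without any 1 array other than control replicate 2 (up to 0.0887), that of SYVN1 without any other than control replicate 1 (up to 0.139) and that of EDEM1 without control replicate 1 or 3 or aspirin replicate 2 or 3 (up to 0.0710). SYVN1 also failed in the fit without a filter (adjusted p = 0.0877) and with the background from all listed genes (adjusted p = 0.103), where EDEM1 rose by 0.33.

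ATF4 and CHOP bind DNA with other basic leucine zipper proteins. Tested were 24 such partners and relatives, of which 3 rose and 1 fell, with a median of 0.14 and 20 short of the threshold. The share called was 16.7%, beside 20.2% of all genes tested. This list shares CEBPB and CEBPG with the other targets above. FOS, an AP-1 subunit of early growth factor responses, changed by -1.82 ± 0.16 (adjusted p = 0.000471), from 7.58, 7.40 and 7.36 to 5.38, 5.67 and 5.84. JUND, another AP-1 subunit (0.83 ± 0.13, adjusted p = 0.00373), MAFG, a small MAF protein (0.81 ± 0.18, 0.0148), and CEBPG, which pairs with ATF4 (0.53 ± 0.15, 0.0410), rose. CEBPB, a further partner named after its values were seen, differed by 0.12 ± 0.17 (adjusted p = 0.659). With the replicate block 6 of the 24 rose and 2 fell, beside 17.4% and 15.7% of all genes. The call of CEBPG was lost without any 1 array other than aspirin replicate 3 (up to 0.104) and that of MAFG without control or aspirin replicate 2 (up to 0.0535). With the background from all listed genes FOS changed by -0.29 and MAFG by 0.10, both past the threshold, and CEBPG failed (adjusted p = 0.0574).

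DDIT4 acts on the TSC complex that holds mTORC1 in check. Tested were 16 regulators of that pathway, of which 2 rose and 0 fell, with a median of 0.10 and 14 short of the threshold, a share called of 12.5% beside 20.2% of all genes tested. SESN2, a sestrin that senses leucine and is a target of ATF4, was 2.29-fold higher (SE 0.23 in log2, adjusted p = 0.00838). Of its control arrays, 2 of 3 exceeded background. SESN2 is also counted among the other targets above. EIF4EBP1, a repressor of cap-dependent translation that mTORC1 inactivates, rose by 0.99 ± 0.24 (adjusted p = 0.0229). The replicate block gave 5 higher and 3 lower of the 16, beside 17.4% and 15.7% of all genes. Both calls were lost with the background from all listed genes (0.10 and 0.36, adjusted p = 0.0504 and 0.116), and that of EIF4EBP1 without control replicate 1 or 2 or aspirin replicate 2 or 3 (up to 0.0771).

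**Figure D4:**
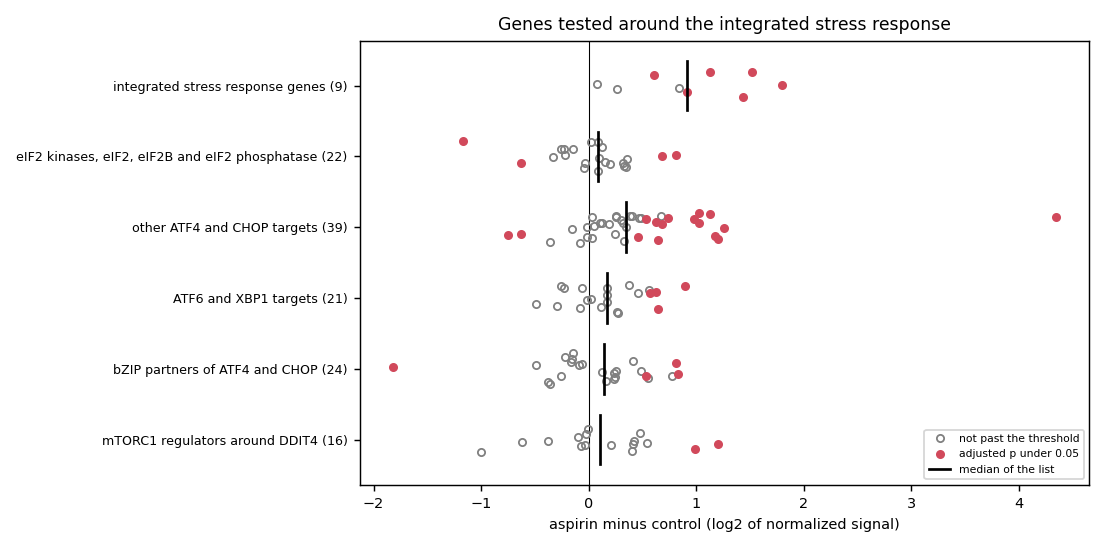
Difference in log2 normalized signal, aspirin minus control, of every gene tested in the integrated stress response set and in 5 lists around it, with the number tested in brackets. Filled points passed an adjusted p under 0.05, bars are list medians, and vertical position within a row carries no information. Some genes, among them SESN2 and CEBPG, are shared between lists. The medians are 0.92 for the 9 members and 0.09 to 0.35 for the other lists, and the point at 4.35 is GDF15.

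The genes whose levels over the 6 arrays were most like the mean of the 9 members tested were FBXO45, WIPI1, ABCA3, LCMT1 and MBP, with Pearson correlations of 0.998 to 0.999. ABCA3 was above background on 0 of 3 control arrays (103.3, 112.4 and 97.3 units) and on all 3 aspirin arrays. It passed the filter only through the group in which it was higher. 593 of 12795 named genes had a correlation above 0.95, and the 6 points share the split into 2 groups, so the likeness is a description. The mean centred level of the members was -0.50, -0.43 and -0.50 on controls 1 to 3 and 0.52, 0.48 and 0.44 on aspirin arrays 1 to 3.

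As a check of the label, all 9 keratinocyte markers examined, among them KRT5, KRT14 and TP63, were above background on all 6 arrays, and KRT5, KRT14, DSG3 and SFN fell, 4 of 9 beside 9.73% of all genes tested. Their summed signal above background was 53467 to 68494 units on control and 36851 to 45067 units on aspirin arrays. Of 12 markers of fibroblasts, endothelium and immune cells, PDGFRB, CDH5, PTPRC and CD3E were above background on no array, and 8 were above it on at least 1. Only 4 of the 12 were above it on all 6 arrays. The 5 that were tested (COL1A1, COL1A2, DCN, LUM and CD14) all fell with aspirin, beside 9.73% of all genes tested. The summed signal of the 12 above background was 820 to 1451 units on control and 264 to 353 units on aspirin arrays. Fewer cells of a type and less RNA per cell cannot be told apart in such samples, and the part of these markers in the results above was not tested.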

How the data were processed

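Per the labels, 3 control and 3 aspirin arrays were compared. The authors deposited a signal intensity per gene and array, not normalized between arrays per the file headers. The submitters' processing notes name GenomeStudio 1.9.0. For the genome build and the way probes of a gene were combined, nothing is stated in the labels or headers. The deposited detection score, headed as a p-value, averaged 0.994 over the 1000 brightest and 0.170 over the 1000 dimmest genes and was read as 1 minus p. The deposited matrix equals the signal minus 1 constant per array, with names shifted for 7171 genes by 1 line and for 12173 by 2 (15338 matched, 5 unmatched, tolerance 0.3 units). It served, realigned, as an alternative.

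Signals were corrected by the normal-exponential model with background from the 27647 genes (79.7%) whose scores are single-probe steps of 1 in 770 on all arrays, then increased by 16 (the offset), quantile normalized between arrays and put on the log2 scale. Excluding 1 gene at signal 0, 15128 genes (43.6%) passed the filter. limma 3.58.1 in R 4.3.3 fitted aspirin against control without covariates. The fit was tested on simulated data with noise independent between arrays, unlike the same-numbered arrays here. It called 3 of 50 planted changes of 0.5 log2 units and 29 of 50 of 1. Of those of 1.5 and 2 it called 41 and 44 of 50, with 7 false calls. The median signal per array was 101.9 to 127.0 units, and arrays of a group correlated at r = 0.977 to 0.991. Above background means a score over 0.95 or a signal over the background mean plus 3 SD.

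Deviations from the group means of same-numbered control and aspirin arrays correlated at 0.507, 0.515 and 0.319. This was read as pairing, a reading the labels do not state. Same-numbered arrays also lay on the same chip, so these correlations cannot tell pairing from a difference between the chips. Which of them applies was not tested. The main calls come from the fit without the replicate block, which ignores any pairing. Named are all members, the 4 genes of each other list with the smallest p-values past the threshold, those called against most of their list, and the 5 most similar genes. Members, lists and the background model were chosen with earlier results of these data known. Listed symbols absent from the table were matched through RefSeq synonyms, and 1 target without a match was left out. 1 further marker is not reported here.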

Additional observations from a re-analysis of the deposited data

How the results depend on the processing

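The number of members that rose, 6, was 4 to 7 under the alternatives that keep all arrays, and 3 to 6 when arrays were left out, with 0 falling in every alternative run. Over 29 named genes and 615 gene and setting combinations (the chip 1 arrays alone and leaving out both replicate 2 arrays, the same fit, counted separately), 507 kept direction and side of the threshold, 106 lost the call, 2 gained it (NUPR1) and 0 reversed. Median scaling moved the split of calls to 1026 higher and 1522 lower, from 1588 and 1472.

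All genes past the threshold numbered 3060, against 5012 with the replicate block, 860 on the chip 1 arrays and 420 to 3131 with arrays left out. The replicate block moved other ATF4 and CHOP targets from 14 higher and 2 lower to 19 and 3, at most 1.5 times the count, and moved other lists further, to 7 higher for ATF6 and XBP1 targets, to 6 higher and 2 lower for bZIP partners and to 5 higher and 3 lower for mTORC1 regulators. Among members it changed the call of NUPR1 alone. On chip 1 alone the counts higher and lower were 0 and 1 for the eIF2 list, 5 and 0 for other ATF4 and CHOP targets, 1 higher for ATF6 and XBP1 targets, 0 higher for bZIP partners and 1 higher for mTORC1 regulators. The background from all listed genes gave 1 and 1 for the eIF2 list and 1 higher for mTORC1 regulators. Median scaling gave 9 higher for other targets and 1 higher for ATF6 and XBP1 targets. For mTORC1 regulators, 1 fell with the chip as a block, no background correction, an offset of 50 or median scaling, 2 with cyclic loess, a trended and robust variance prior, scores above 0.95 on all 6 arrays (1 higher) or the filter on signal, which was chosen after the data were seen.

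With arrays left out, the counts higher and lower ranged from 0 to 2 and 1 to 2 for the eIF2 list, 2 to 12 and 0 to 2 for other targets, 0 to 3 and 0 to 1 for ATF6 and XBP1 targets, 0 to 4 and 1 to 2 for bZIP partners, and 0 to 3 and 0 to 1 for mTORC1 regulators. Leaving out arrays means fewer samples by construction, and the cause of the other changes was not tested. Dim genes such as CHAC1 are limited by signal over background.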
